A study of Rattus norvegicus with 102 samples.

Results

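Rgs14, Pcp4, Amigo2, Map3k15 and Necab2, listed as markers of pyramidal neurons of hippocampal field CA2, and Bok, Iyd and Nnat, listed as markers of field CA3, were followed through the deposited RNA tables of rat hippocampus. These 8 genes, 5 for CA2 and 3 for CA3, were chosen by symbol, and each symbol named 1 of the 26284 genes of the Illumina table. By the identifiers of the tables they are Rgs14 (ENSRNOG00000015616, chromosome 17), Pcp4 (ENSRNOG00000001628, chromosome 11), Amigo2 (ENSRNOG00000007032, chromosome 7), Map3k15 (ENSRNOG00000025290, chromosome X), Necab2 (ENSRNOG00000015084, chromosome 19), Bok (ENSRNOG00000018214, chromosome 9), Iyd (ENSRNOG00000016286, chromosome 1) and Nnat (ENSRNOG00000024923, chromosome 3). The animals were male Fisher 344 rats without a transgene or drug treatment: 10 young rats of 5 to 6 months, and 24 aged rats of 17 to 22 months that the labels divided into 12 unimpaired and 12 impaired animals. The study's methods based that division on memory of the platform place in a water maze. Pieces of the dentate gyrus (DG), of CA1 and of CA3 were cut by hand, from a slice of dorsal hippocampus by the series design text and along the length of the hippocampus by the published methods. Each rat gave 1 library per subfield and each of 3 tables held 102 libraries, 34 per subfield. CA2 was not taken as a piece of its own. Nothing in the labels says that a rat's pieces were sampled more than once, so each value below is 1 library of 1 rat.

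CA2 is a short band of pyramidal cells between CA1 and CA3 that is known for its resistance to long-term potentiation and for its part in social memory. CA3 pyramidal cells receive the mossy fibres of DG granule cells and send the Schaffer collaterals on to CA1. CA2 lies at the border along which CA1 and CA3 are parted in dissection. In bulk pieces such as these, fewer cells of a type and less RNA per cell cannot be told apart.

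A pair of the members are shown by their promoters, because Rgs14 and Amigo2 both differed between pieces of tissue in the results below, in different ways, and their start sites differ in base composition. The sequences are RefSeq's, on the GRCr8 assembly, from 250 bases before to 50 bases after the transcript start, 5′ to 3′ on the gene's own strand. Capitals mark GC boxes, searched as GGGCGG or, on the other strand, CCGCCC. The Rgs14 window is chr17:9268184-9268483 on the minus strand and the Amigo2 window is chr7:130273686-130273985 on the minus strand.
Rgs14: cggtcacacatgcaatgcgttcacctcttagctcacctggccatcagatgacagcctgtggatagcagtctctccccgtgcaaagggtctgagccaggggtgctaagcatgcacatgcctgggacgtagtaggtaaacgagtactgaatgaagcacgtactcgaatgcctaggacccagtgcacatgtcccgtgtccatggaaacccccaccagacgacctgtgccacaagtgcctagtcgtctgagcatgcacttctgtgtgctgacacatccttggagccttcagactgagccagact
Amigo2: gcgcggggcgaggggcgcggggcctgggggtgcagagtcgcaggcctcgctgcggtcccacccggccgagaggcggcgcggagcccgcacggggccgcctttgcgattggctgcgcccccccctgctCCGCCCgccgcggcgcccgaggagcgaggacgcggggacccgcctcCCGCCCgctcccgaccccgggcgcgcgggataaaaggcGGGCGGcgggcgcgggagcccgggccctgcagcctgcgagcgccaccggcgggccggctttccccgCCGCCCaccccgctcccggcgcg
The Amigo2 window held 4 GC boxes and was 83.7% G or C, while the Rgs14 window held 0 and was 55.3% G or C. Over all 33469 promoter windows of the same length, 33.1% held a GC box and the median share of G or C was 51.7%. Among the members with a window, Necab2 also held 4 GC boxes (85.7% G or C), Pcp4 and Iyd held 0 (53.3% and 45.7%), and Iyd alone held the TATA box letters TATAAA, found in 14.2% of all windows. Windows were at hand for 5 of the 8 members, and not for Bok, Nnat and Map3k15. The match is a description of letters and says nothing on which factors bind there.

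Depth, in megareads per library, was 3.25 to 42.8 in the Illumina poly-A table (median 10.7) and 4.47 to 21.4 in the Ion Proton poly-A table (median 9.74), which was made from RNA of the same pieces. Levels below are normalised reads, that is reads divided by the authors' size factor of the library, from the Illumina table unless stated. A level of 3 reads corresponded to 0.919 to 12.7 normalised reads, which covers counting error only. Lists of other marker genes, none of them members, were used to check the labels. In both poly-A tables, 13 of the 102 libraries lay nearer to the median marker profile of another subfield than to that of their own label: 2 labelled CA1, 8 labelled CA3 and 3 labelled DG. They were 2 of the 30 young, 7 of the 36 aged unimpaired and 4 of the 36 aged impaired libraries. The rat numbers on the labels fell in 2 runs, with 18 rats below 9000 (5 young, 6 aged unimpaired, 7 aged impaired) and 16 from 9000 up (5, 6 and 5), and 12 of the 13 libraries belonged to the higher run. The series design gives 2 sites with as many young and aged rats as these runs, but no label ties a rat to a site, so the runs are called number series here.

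The libraries labelled CA3 differed by number series in the very markers of CA3. The summed level of 8 other CA3 genes (Grik4, Pvrl3, Socs2, Coch, Rnf182, Nptx1, Spock1 and Cpne4) was 11018 to 18608 in the CA3 libraries of the lower series (median 15899) and 3207 to 9331 in those of the higher series (median 6117). The 2 ranges did not overlap, and 7 of the 8 genes had the lower median in the higher series. DG libraries held the same 8 genes at summed levels of 8113 to 15740 in the lower and 5365 to 16146 in the higher series. The list is thus not particular to CA3 beside DG. In the same CA3 libraries the summed level of 7 CA1 genes had a median of 2250 in the lower and 4686 in the higher series, with 7 of 7 genes higher, and that of 8 DG genes (Prox1 and C1ql2 among them) a median of 756 and 1186, with 7 of 8 higher. Every one of these list genes had a value above 0 in some library. Summed subiculum markers ranged from 1249 to 1568 in the lower and from 1384 to 5268 in the higher series, striatum markers from 890 to 1332 and from 1186 to 2627, and oligodendrocyte markers from 111009 to 359000 and from 51711 to 212949. Thalamus and habenula markers ranged from 454 to 1166 and from 537 to 2088, with 6 of 6 genes higher in the higher series, microglia markers from 2572 to 5109 and from 2718 to 3912, with 5 of 5 higher, and endothelium markers from 1351 to 2054 and from 944 to 6092, with 5 of 5 higher. Ependyma markers had a lower median in 4 of 4 genes (265 to 805 and 106 to 763), choroid plexus markers a higher one in 6 of 8 (51.9 to 13017 and 63.2 to 2057), and astrocyte and interneuron markers a higher one in 4 of 5 each (34256 to 48348 and 36259 to 52897, 4780 to 7458 and 3393 to 7516). Their part in the members' values was not tested.

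**Figure D1:**
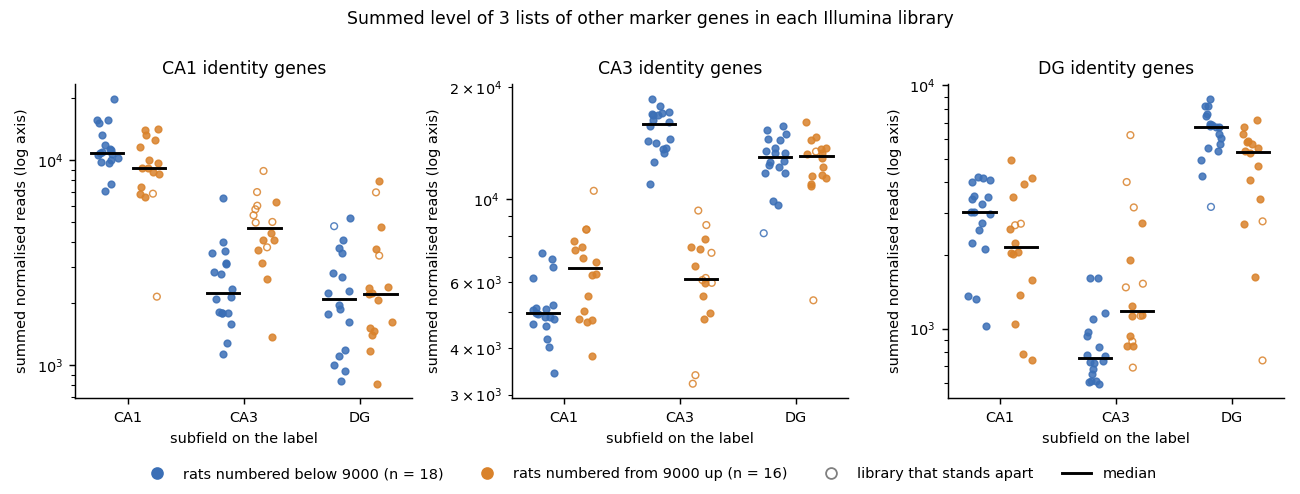
Summed normalised reads of the CA1, CA3 and DG marker lists (y axes, log scale) in each Illumina library by the subfield on its label (x axis). Blue points are rats numbered below 9000, orange points rats from 9000 up, open points the 13 libraries that stand apart, and bars medians. In the middle panel the CA3 libraries of the 2 series do not overlap, with medians of 15899 and 6117.

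Nnat encodes neuronatin, a small membrane protein of the endoplasmic reticulum expressed from the paternal allele. Over all rats, though not within those below 9000, it was the member with the widest difference between subfields. In the libraries labelled CA3 its level was 994 at the lowest, 9290 at the median and 14783 at the highest, against 1032, 2764 and 6291 in CA1 and 1660, 4002 and 9525 in DG. The groups overlapped, while 27 of the 34 CA3 libraries lay above every CA1 library. Nnat was 2.86-fold higher in CA3 than in CA1 (log2 change CA1 minus CA3 of -1.51 ± 0.16 SE, adjusted p = 6.49e-13, limma) and 1.97-fold higher in CA3 than in DG (log2 change 0.98 ± 0.16, adjusted p = 1.98e-07, limma). It was 1.45-fold lower in CA1 than in DG (log2 change -0.53 ± 0.16, adjusted p = 0.00365, limma), a call not made within the rats numbered below 9000 (-0.30, adjusted p = 0.163, and -0.48, adjusted p = 0.168, in the Ion Proton table, limma). In the Ion Proton table the 3 differences were -1.46, 0.87 and -0.59. Nnat lies within an intron of Blcap, so reads of the overlapping genes may be split between them. Blcap differed less, by -0.21 between CA1 and CA3.

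Bok encodes a member of the Bcl-2 family that promotes cell death, and its level in CA3 pieces differed by number series. Over all rats it had a level of 247, 945 and 1471 in CA3 (lowest, median, highest), 439, 730 and 1265 in CA1 and 332, 939 and 1274 in DG, and these ranges overlapped throughout. The difference between CA1 and CA3 did not pass the test (log2 change -0.08, 95% interval -0.32 to 0.16, adjusted p = 0.661, limma), nor did that between CA3 and DG (-0.19, interval -0.43 to 0.05). CA1 minus DG gave -0.27 (interval -0.51 to -0.02, adjusted p = 0.0588, limma) and passed in the Ion Proton table (-0.40, adjusted p = 0.0176, limma), so it was not called in both. Bok is taken up again below, since the difference between CA1 and CA3 had opposite signs in the 2 number series.

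Iyd encodes iodotyrosine deiodinase, an enzyme that recovers iodide in the thyroid. It was at the floor of these libraries. Its median level was 1.36 in DG, 1.399 in CA1 and 1.598 in CA3, its highest value 7.67 in DG, and 3 reads or fewer were held by 30 of the 34 libraries in CA1, 24 in CA3 and 30 in DG. No difference between subfields was detectable at this depth, and Iyd stayed below the mean of 10 that a gene needed to be tested.

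Amigo2 encodes an adhesion protein of the cell surface that is used to mark CA2. Its level was 84.4, 274 and 395 in CA3 (lowest, median, highest), 75.6, 111 and 257 in CA1 and 70.8, 128 and 332 in DG. Of the 34 CA3 libraries, 18 lay above every CA1 library, and 31 lay above the CA1 median. Amigo2 was 1.92-fold higher in CA3 than in CA1 (log2 change CA1 minus CA3 of -0.94 ± 0.13, adjusted p = 6.99e-09, limma) and 1.87-fold higher in CA3 than in DG (0.90 ± 0.13, adjusted p = 9.85e-09, limma). Neither call was made within the rats numbered from 9000 up. There CA1 minus CA3 was -0.14 (adjusted p = 0.666, limma) and CA3 minus DG was 0.079 (adjusted p = 0.749, limma). Over all rats Amigo2 did not pass between CA1 and DG (-0.04, interval -0.31 to 0.22).

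Rgs14 encodes a regulator of G protein signalling that is known to restrain synaptic potentiation in CA2 cells. Its level was 970, 2223 and 3872 in CA1 (lowest, median, highest), 600, 1781 and 4556 in CA3 and 831, 1215 and 2755 in DG. CA1 libraries were above the DG median in 32 of 34 cases, and the ranges still overlapped. Rgs14 was 1.74-fold higher in CA1 than in DG (log2 change 0.80 ± 0.12, adjusted p = 2.29e-08, limma) and 1.31-fold higher in CA3 than in DG (0.39 ± 0.12, adjusted p = 0.0037, limma). Within the rats numbered from 9000 up, CA3 minus DG was -0.27 (adjusted p = 0.199, limma) and was not called. CA3 was above DG in 5 of these 16 rats, and in 8 of 16 in the Ion Proton table. Between CA1 and CA3 over all rats, the Illumina table passed (0.40 ± 0.12, adjusted p = 0.00521, limma) and the Ion Proton table did not (0.27, adjusted p = 0.134, limma), so Rgs14 was not called there.

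Pcp4 encodes a small peptide that binds calmodulin, and it was the only called member that was highest in DG. Its level was 889, 1227 and 1718 in DG (lowest, median, highest), 502, 903 and 3644 in CA1 and 476, 1052 and 1519 in CA3. The ranges overlapped, and 33 of 34 DG libraries lay above the CA1 median. Pcp4 was 1.34-fold lower in CA1 than in DG (log2 change -0.42 ± 0.10, adjusted p = 0.000154, limma) and 1.20-fold lower in CA3 than in DG (-0.27 ± 0.10, adjusted p = 0.0146, limma). With whole reads recovered from the table and edgeR in place of limma, both changes kept their sign (-0.33 and -0.26) but were not called in both tables. Neither call was made within the rats numbered from 9000 up, where CA1 minus DG was -0.23 (adjusted p = 0.322, limma) and -0.04 in the Ion Proton table, and CA3 minus DG was -0.28 (adjusted p = 0.211, limma) and -0.04. The highest CA1 value, 3644, came from an aged unimpaired rat of the higher number series, whose CA1 library stands apart: its summed striatum markers were 19780 against a median of 1690 over CA1 libraries, and its summed CA1 markers were the lowest of the 34. The next CA1 value, 2628, came from an aged impaired rat whose summed thalamus and habenula markers were the highest of the 34 (4452, median 977). The part of these markers in Pcp4 was not tested.

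Necab2 encodes a neuronal calcium-binding protein. Its lowest, median and highest level was 669, 1974 and 2446 for CA1 pieces, 525, 2192 and 2464 for CA3 pieces and 937, 1929.9 and 2409 for DG pieces, and the 3 ranges nearly coincided. Over all rats none of its 3 subfield differences passed: the interval was -0.22 to 0.10 for CA1 minus CA3, -0.17 to 0.15 for CA1 minus DG and -0.11 to 0.21 for CA3 minus DG. Map3k15, which encodes a kinase at the head of a MAP kinase cascade, was scarce. Its level was 0, 4.19 and 22.1 in DG against 4.26, 10.7 and 23.3 in CA3 and 1.68, 11.0 and 24.7 in CA1, with 3 reads or fewer in 13 of the 34 DG libraries and in 4 each of CA3 and CA1. Its mean of 9.76 over all libraries was below the minimum. Without that minimum, Map3k15 was 2.06-fold higher in CA1 than in DG (log2 change 1.05 ± 0.19, adjusted p = 2.04e-06, limma) and the Ion Proton table gave 1.12. For CA3 minus DG the values were 1.13 and, in the Ion Proton table, 0.67 with an adjusted p of 0.0804 by limma. Within the rats numbered from 9000 up, Map3k15 passed the minimum and gave 0.48 for CA1 minus DG (adjusted p = 0.207, limma). CA3 was above DG in 14 of these 16 rats, and in 12 of 16 in the Ion Proton table. CA1 was above CA3 in 12 of 18 rats below 9000 and in 2 of 16 from 9000 up, at levels of few reads. In the Ion Proton table it was 15 of 18 and 7 of 16.

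**Figure D2:**
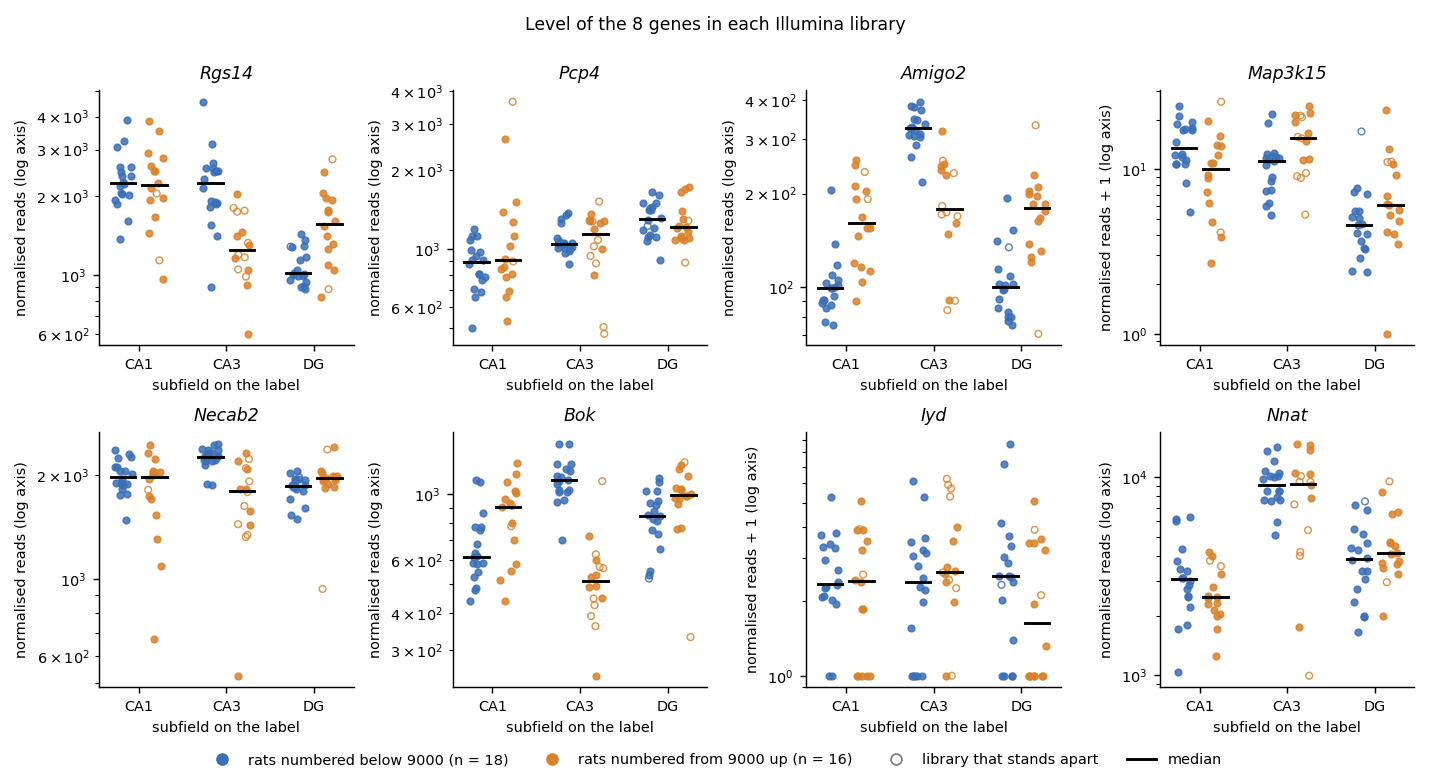
Level of each of the 8 genes in each Illumina library (y axes, normalised reads, or normalised reads + 1 for Map3k15 and Iyd, log scale) by the subfield on the label (x axis). Blue points are rats numbered below 9000 (n = 18), orange points rats from 9000 up (n = 16), open points libraries that stand apart, and bars medians of a series. The CA3 libraries of the 2 series part most for Bok (medians 1110 and 510) and Amigo2 (325 and 178), while for Nnat the medians are 9184 and 9290.

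A gene was called when its adjusted p, from limma with Benjamini-Hochberg adjustment over all genes tested, was under 0.05 in both poly-A tables with 1 direction. The mean of 10 kept 6 of the 8 members in these fits. Between CA1 and CA3, 2 of the 6 were called (Nnat and Amigo2, both higher in CA3), beside 14.4% of all 13907 genes tested in both tables. Between CA1 and DG, 3 of the 6 were called (Rgs14 higher in CA1, Nnat and Pcp4 higher in DG), beside 26.9%. Between CA3 and DG, 4 of the 6 were called (Amigo2, Nnat and Rgs14 higher in CA3, Pcp4 higher in DG), beside 28.5%. Without the 13 libraries that stand apart, Nnat and Amigo2 remained called between CA1 and CA3 (-1.72 and -1.18), beside 19.5% of all genes. Bok was then called between CA1 and DG (-0.33, adjusted p = 0.0106, limma, and -0.47 in the Ion Proton table), beside 27.7%. With edgeR and without these libraries, Bok was also called between CA1 and CA3 (-0.30, adjusted p = 0.026, edgeR), beside 20.6%.

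Within the same rat the order of the subfields could be read without reference to other animals, and it differed by number series. Below 9000, CA1 was lower than CA3 in 18 of 18 rats for Bok, for Amigo2 and for Nnat. From 9000 up, CA1 was higher than CA3 in 13 of 16 rats for Bok, in 7 of 16 for Amigo2 and in 3 of 16 for Nnat. For Rgs14, CA1 was higher in 9 of 18 rats below 9000 and in 15 of 16 from 9000 up.

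**Figure D3:**
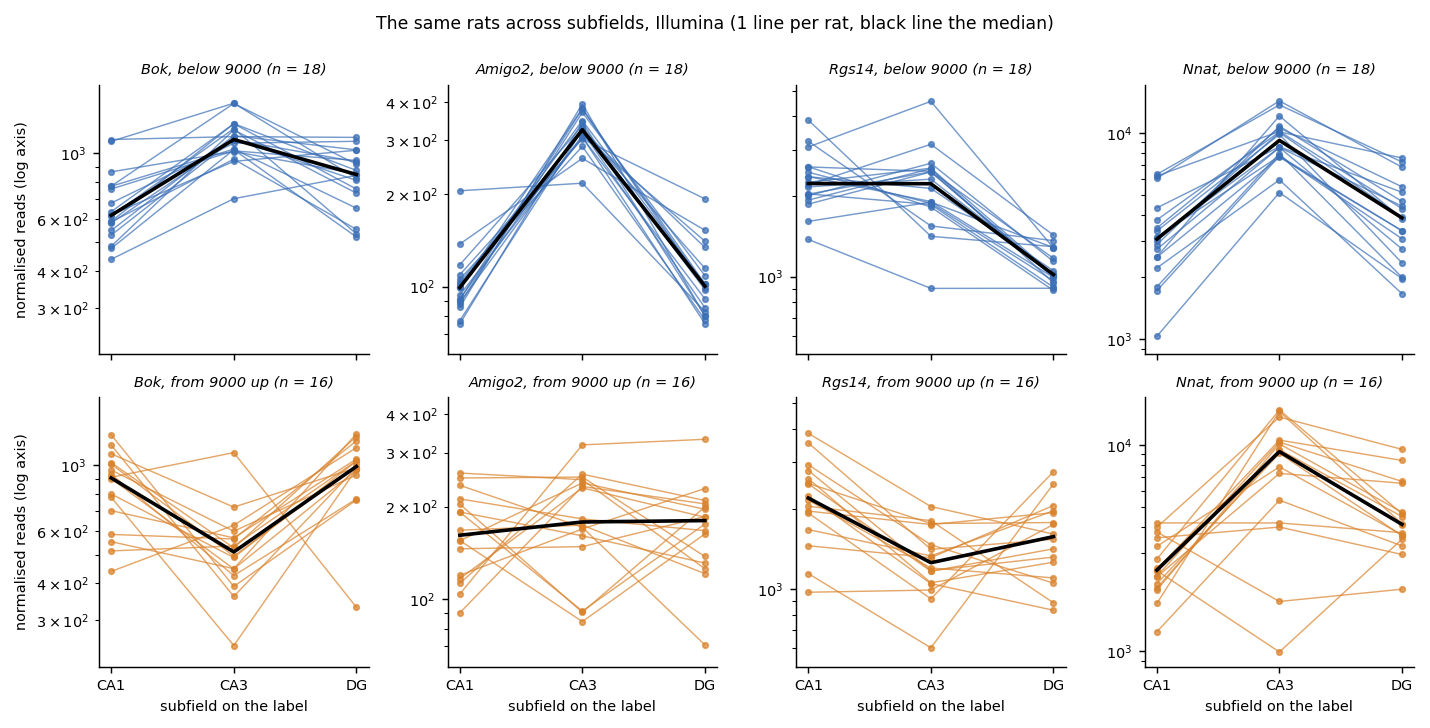
Levels of Bok, Amigo2, Rgs14 and Nnat (y axes, normalised reads, log scale) in the CA1, CA3 and DG libraries (x axis) of each rat, joined by 1 line per rat, for rats numbered below 9000 (top, n = 18) and from 9000 up (bottom, n = 16). The black line joins medians. Lines for Bok rise from CA1 to CA3 in 18 of 18 rats of the top row and fall in 13 of 16 of the bottom row.

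The level of Bok was 701, 1110 and 1471 (lowest, median, highest) in CA3 libraries below 9000 and 247, 510 and 1103 from 9000 up. In the higher series 14 of 16 libraries lay below every library of the lower one, but only 1 of 16 did in the Ion Proton table, with ranges of 230.0 to 1347 and 149 to 1023. In CA1 the order was the opposite, with medians of 617 and 906. Within the lower series Bok was 1.69-fold lower in CA1 than in CA3 (log2 change -0.76 ± 0.10, adjusted p = 1.19e-08, limma), and within the higher series it was 1.61-fold higher in CA1 (0.68 ± 0.16, adjusted p = 0.00197, limma). The Ion Proton table gave -0.99 and 0.58. Leaving the 8 CA3 libraries that stand apart out of the higher series left Bok at 247, 510 and 723 there (n = 8), and the 2 ranges then met only between 701 and 723.

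Amigo2 in CA3 was 218, 325 and 395 below 9000 and 84.4, 178 and 318 from 9000 up, and 9 of the 16 higher-series libraries lay below every lower-series one, as did 9 in the Ion Proton table. In CA1 the medians were 99.3 and 161, and in DG 100 and 180. The difference between CA1 and CA3 was 3.16-fold within the lower series (log2 change -1.66 ± 0.10, adjusted p = 4.51e-21, limma) and did not pass within the higher one (-0.14 ± 0.18, adjusted p = 0.666, limma). Among the 8 higher-series CA3 libraries that do not stand apart, Amigo2 had a median of 235 and a range of 91.3 to 318.

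Rgs14 in CA3 was 902, 2233.1 and 4556 below 9000 and 600, 1253 and 2038 from 9000 up. In DG the order turned, with medians of 1017 and 1570, while in CA1 the medians were 2237.3 and 2193. Rgs14 therefore differed between CA1 and CA3 within the higher series (0.76 ± 0.17, adjusted p = 0.00163, limma) and not within the lower one (0.09 ± 0.12, adjusted p = 0.549, limma). Within the lower series it was 1.98-fold higher in CA3 than in DG (0.98 ± 0.12, adjusted p = 2.23e-10, limma), against -0.27 ± 0.17 within the higher one (adjusted p = 0.199, limma).

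The levels of Bok, Amigo2 and Rgs14 in CA1 and DG pieces also stand beside marker lists that differed by series in the Illumina table. For CA1 pieces the medians of 5 of 5 oligodendrocyte, 5 of 5 astrocyte, 5 of 5 endothelium, 7 of 8 choroid plexus and 7 of 8 CA3 genes were higher from 9000 up, and those of 6 of 7 CA1 and 7 of 8 DG genes were lower. Oligodendrocyte genes there summed to 68501 to 140559 below 9000 and 99011 to 276746 from 9000 up, CA3 genes to 3436 to 7192 and 3816 to 10540.1, and CA1 genes to 7092 to 19952 and 2159 to 14166. For DG pieces 5 of 5 oligodendrocyte, 5 of 5 astrocyte, 5 of 5 microglia, 4 of 4 ependyma and 7 of 8 choroid plexus genes had the higher median from 9000 up, and 7 of 8 DG genes the lower. The oligodendrocyte sums of DG pieces were 41382 to 75119 and 62946 to 205001, and the DG gene sums 3165 to 8819.5 and 740.0 to 7216. Below 9000, 1 gene of the choroid plexus list was at 0 in every CA1 library and 1 in every DG library. The part of these shifts in the 3 genes' levels was not tested.

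Necab2 in CA3 was 1874, 2259 and 2464 below 9000 and 525, 1803 and 2322 from 9000 up, with 10 of the 16 higher-series libraries below every lower-series one, against 1 of the 16 in the Ion Proton table. Within the lower series Necab2 was called lower in CA1 than in CA3 in both tables (-0.18 ± 0.05, adjusted p = 0.000651, and -0.22 ± 0.08, adjusted p = 0.0396, limma), with CA1 lower in 14 of 18 rats, and in 17 of 18 in the Ion Proton table. Within the higher series it gave 0.08 and 0.02. Nnat behaved otherwise. Its CA3 level was 5132, 9184 and 14271 below 9000 and 994, 9290 and 14783 from 9000 up, so the medians were close and the spread wider in the higher series. Its difference between CA1 and CA3 was -1.59 ± 0.19 within the lower series and -1.43 ± 0.26 within the higher one, and both passed (adjusted p = 1.12e-10 and 0.000176, limma). Pcp4 had CA3 medians of 1047 and 1138.

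The difference between the series was tested in 1 limma fit with 6 groups of subfield and series, a comparison added after the data were examined. The subfield difference of CA1 minus CA3 was greater from 9000 up than below 9000 by 1.52 ± 0.20 on the log2 scale for Amigo2 (adjusted p = 8.33e-10, limma), by 1.44 ± 0.19 for Bok (adjusted p = 6.41e-10, limma) and by 0.67 ± 0.21 for Rgs14 (adjusted p = 0.00648, limma). The Ion Proton values were 1.34, 1.57 and 0.83, and all 3 were called in both tables. Thus 3 of the 6 tested members were called, beside 13.9% of all genes. For Pcp4, Necab2 and Nnat the values were 0.38 (interval 0.01 to 0.76, adjusted p = 0.104), 0.26 (-0.04 to 0.55) and 0.16 (-0.47 to 0.79), by limma. These were less stable: without the libraries that stand apart Pcp4 gave 0.08 and Nnat -0.30, and with single rats left out Pcp4 ranged from 0.23 to 0.46 and Necab2 from 0.13 to 0.34.

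The same test of CA3 minus DG gave -1.55 for Amigo2, -1.33 for Bok and -1.26 for Rgs14, again 3 of 6 called in both tables, beside 17.2% of all genes. Necab2 passed in the Illumina table (-0.51 ± 0.15, adjusted p = 0.00344, limma) but not in the Ion Proton table (-0.39, adjusted p = 0.104, limma). Without the libraries that stand apart, Necab2 was called in both tables as well (-0.61, adjusted p = 0.00183, limma). For CA1 minus DG, 0 of 6 members were called in both tables by limma, beside 0.108% (15 genes) over all. The unadjusted p was under 0.05 for Rgs14 alone in the Illumina table (-0.59, p = 0.00547) and for Pcp4 alone in the Ion Proton table (0.67, p = 0.00382). Series effects of the 3 called members held over 9 other settings: between CA1 and CA3, Amigo2 lay between 1.25 and 1.56, Bok between 1.36 and 1.49 and Rgs14 between 0.60 and 0.86. Without the libraries that stand apart the values were 1.31, 1.49 and 0.83. Each of these values stands beside the shift of the CA3, CA1 and DG marker lists in the CA3 libraries, and of the lists named for CA1 and DG pieces, given above, whose part in it was not tested. The number series and anything else that differed between the 2 runs of rats cannot be told apart.

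**Figure D4:**
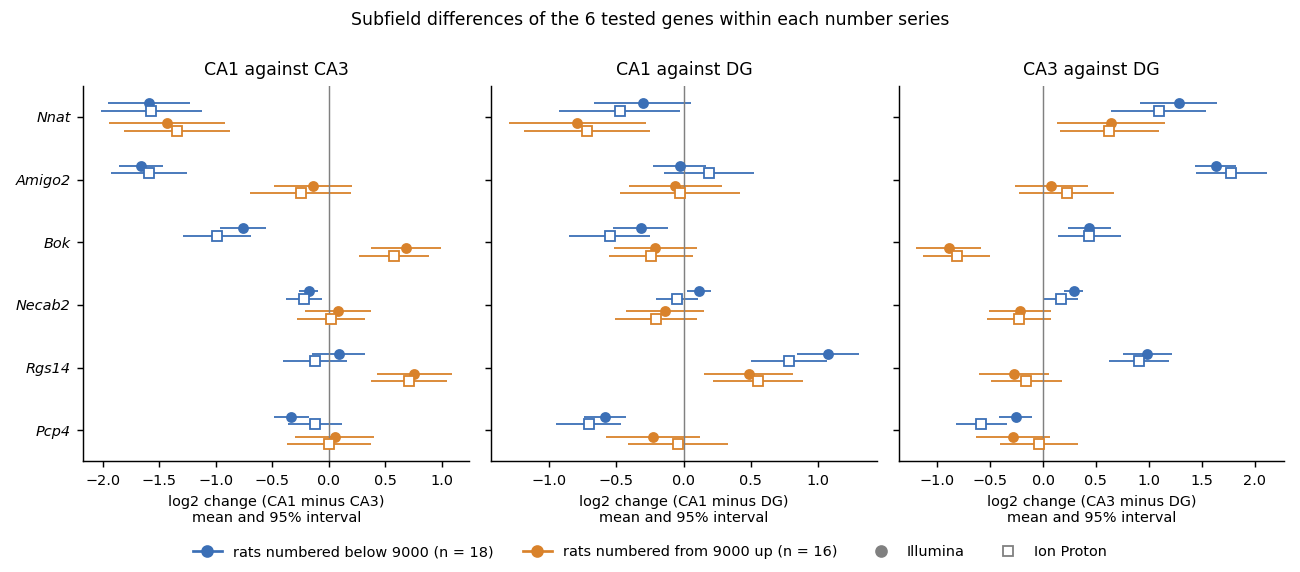
Log2 difference between subfields for the 6 tested genes (x axes, mean with 95% interval), fitted within rats numbered below 9000 (blue, n = 18) and from 9000 up (orange, n = 16), with circles for the Illumina and squares for the Ion Proton table. In the left panel Bok lies at -0.76 in the lower series and at 0.68 in the higher one, while Nnat lies at -1.59 and -1.43.

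Other CA2 genes were read in the same way (Avpr1b, Cacng5, Ntf3, Fgf2, Adora1, Ptpn5, Nr3c2 and Acan). Avpr1b, the vasopressin receptor used to mark CA2, had a median of 0 in every subfield, and the other 7 were tested. Between CA1 and CA3, 1 was called higher in CA1 (Ntf3, a neurotrophin, 0.73) and 1 in CA3 (Acan, a proteoglycan of perineuronal nets, -0.55), with a median log2 change of -0.12 over the 7 beside 0.01 over all genes. Between CA3 and DG, 1 was called each way: Cacng5, an auxiliary subunit of AMPA receptors, was higher in CA3 (1.24) and Ntf3 in DG (-1.59). Between CA1 and DG, Ptpn5 was called higher in CA1 (0.22), and Ntf3 and Acan in DG (-0.86 and -0.36). In the test of the series, CA1 minus CA3 was called greater from 9000 up for 4 of the 7 (Cacng5 by 1.66, Adora1 by 0.85) and smaller for 1 (Ntf3 by -0.74), with a median of 0.53 beside -0.01 over all genes. For CA3 minus DG the counts were 1 greater (Ntf3, 0.93) and 4 smaller (Cacng5, -2.78, and Adora1, -0.70), and for CA1 minus DG 0 of 7 were called.

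Of the 8 other CA3 genes, 6 were called higher in CA3 than in CA1 and 0 in CA1. Against DG, 1 was called higher in CA3 and 3 in DG. In the test of the series, 7 of 8 were called with a greater CA1 minus CA3 difference from 9000 up (Cpne4 by 2.68, Grik4 by 1.84, Pvrl3 by 1.79), the same sign as for Bok and Amigo2. All 8 also took part in finding the libraries that stand apart, so their values are a description of the tissue.

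Close relatives of the members served as a second view of each family. Of 14 relatives, 11 were listed and tested. Between CA1 and CA3, 3 were called each way, among them Necab3 (0.85) and Rgs10 (0.61) higher in CA1 and Necab1 (-0.67) higher in CA3. Beside Necab2, which passed in no contrast over all rats, its relative Necab1 was called lower in CA1 than in DG (-0.89) and Necab3 lower in CA3 than in DG (-0.90). Rgs10 was lower in CA3 than in DG by -1.18, opposite in sign to Rgs14, and Pcp4l1, a relative of Pcp4, was higher in CA1 than in DG (0.61), opposite in sign to Pcp4. Rgs12, another relative of Rgs14, had medians of 1015 in CA1, 697 in CA3 and 646 in DG, the same order as Rgs14. Over the 11, the median was 0.06 for CA1 minus CA3 and -0.05 for CA1 minus DG.

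Age and water maze class were compared within each subfield, to ask which genes differ between young, aged unimpaired and aged impaired rats. A gene was kept at an unadjusted p under 0.01 in the Illumina table and counted as retested where the Ion Proton table gave a one-sided p under 0.05 in the same direction. Of the 7 members tested in CA1 and CA3 in the Illumina table, Map3k15 was under the minimum mean in the Ion Proton table, so 6 could be retested in every subfield. In CA1, 0 of 6 members were retested for aged against young (0.832% of all genes) and for aged unimpaired against young (0.607%), 1 of 6 for aged impaired against young (1.21%) and 0 of 6 for aged impaired against aged unimpaired (0.62%). In CA3 it was 0 of 6 in the same 4 comparisons (0.393%, 0.386%, 0.274% and 0.0211% of all genes), and in DG 0 of 6 (1.07%, 0.621%, 0.948% and 0.121%). Over the 12 comparisons, 80 member tests were made in the Illumina table, of which 4 had an unadjusted p under 0.05 and 0 an adjusted p under 0.05 by limma. In the Ion Proton table it was 2 of 72 and 0. The comparisons with young rats share the young libraries.

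The member retested was Rgs14 in CA1. Its level in CA1 was 1451, 2536 and 3872 in young rats (lowest, median, highest), 1140, 2474 and 3534 in aged unimpaired rats and 970, 2027 and 2376 in aged impaired rats. The groups overlapped, yet 0 of 12 impaired rats lay above the young median and 8 of 10 young rats lay above the impaired median. Mean levels were 2634 ± 757 (SD, n = 10), 2419 ± 691 (SD, n = 12) and 1910 ± 395 (SD, n = 12). The log2 change of impaired against young rats was -0.45 (unadjusted p = 0.00799, adjusted p = 0.413, limma), so it did not pass the correction over all genes. The Ion Proton table gave -0.37 (unadjusted p = 0.0166, limma). Leaving out each of the 22 rats in turn moved the change between -0.54 and -0.36 and its p between 0.000988 and 0.0198, with 11 of 22 at 0.01 or above. Within the lower series it was -0.44 (p = 0.00545, limma) and within the higher one -0.48 (p = 0.106, limma). Impaired against unimpaired rats gave -0.32 (p = 0.0554, limma), or -0.44 (p = 0.00493, limma) without the 2 unimpaired CA1 libraries that stand apart, where the Ion Proton table gave -0.17 (p = 0.346, limma).

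Marker sums of the same CA1 libraries are set beside that value. CA1 genes summed to 6822 to 15630 in young and 6647 to 11851 in impaired rats, with 3 of 7 medians higher and 4 lower in impaired rats. CA3 genes summed to 4565 to 7755 and 3436 to 8312, with 3 of 8 higher and 5 lower. Microglia genes summed to 2588 to 3496 and 2819 to 4108, with 5 of 5 higher. Striatum genes summed to 1343 to 2500 and 1568 to 3041, with 6 of 6 higher, DG genes to 1581 to 3930 and 1029 to 4914, with 6 of 8 higher and 1 lower, and endothelium genes to 1538 to 2885 and 1862 to 3609, with 4 of 5 higher. The other CA2 genes summed to 5481 to 7476 in young and 4776 to 7039 in impaired rats, with 1 of 8 medians higher and 6 lower, and oligodendrocyte genes to 68501 to 197509 and 91918 to 189877, with 4 of 5 higher. In these lists 1 gene, of the CA2 list, was at 0 in all young libraries. Their part in the Rgs14 value was not tested.

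**Figure D5:**
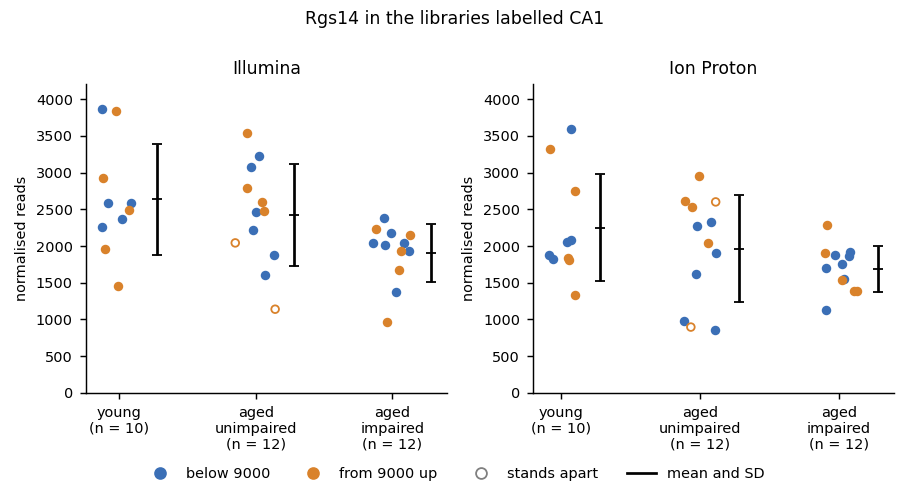
Level of Rgs14 in the libraries labelled CA1 (y axes, normalised reads, linear from 0) in young, aged unimpaired and aged impaired rats (x axes), for the Illumina (left) and Ion Proton (right) tables. Points are rats, coloured by number series, open points libraries that stand apart, and bars the mean and SD. No impaired rat lies above the young median of 2536 in the left panel.

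The Pcp4 value in CA1 depended on the libraries that stand apart. Its CA1 level was 696, 1013 and 1506 in young rats, 502, 792 and 3644 in aged unimpaired rats and 656, 909 and 2628 in aged impaired rats. With all libraries, unimpaired against young rats gave -0.25 (p = 0.295, limma). Without the 2 unimpaired CA1 libraries that stand apart, 1 of them the library at 3644, it was -0.46 (p = 0.00232, adjusted p = 0.449, limma), with -0.49 in the Ion Proton table (p = 0.00977), which met the retest rule. Of the 12 unimpaired rats 4 lay below every young rat, against 1 of 12 in the Ion Proton table.

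The other values under an unadjusted p of 0.05 were scattered. In CA1, impaired against unimpaired rats gave -0.37 for Bok (p = 0.0209, limma) and -0.29 for Necab2 (p = 0.038, limma). In DG, the same comparison gave 0.48 for Nnat (p = 0.0467, limma). None of them was under 0.05 in the Ion Proton table. With single rats left out the Necab2 value ranged from -0.32 to -0.17. In the Ion Proton table, Necab2 for impaired against young rats in CA3 gave -0.28 (p = 0.0342, limma). Bok in CA1 was 477, 832 and 1094 in unimpaired and 439, 585 and 1265 in impaired rats (lowest, median, highest), ranges that overlapped throughout.

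Whether an effect of age or maze class differed between subfields was tested directly for the 6 members, in 36 tests of the Illumina table. By limma, 1 had an unadjusted p under 0.05 and 0 an adjusted p under 0.05. That 1 was Amigo2, whose change of impaired against unimpaired rats was lower in CA1 than in CA3 by -0.69 (p = 0.0321, limma), with -0.83 in the Ion Proton table (p = 0.0336). Its CA1 medians were 128 in unimpaired and 102 in impaired rats, and its CA3 medians 277 and 315.

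The levels of each member in the CA1 and CA3 pieces were also compared over rats. CA3 levels differed by series, so the relation was read within each series, in 8 members and with permutation tests of 100000 resamples. Below 9000 (n = 18), Amigo2 gave Pearson's r of -0.79 (adjusted p = 0.0018) and Spearman's rho of -0.64 (adjusted p = 0.0204), and Nnat gave r of 0.77 (adjusted p = 0.0016) and rho of 0.70 (adjusted p = 0.0125). Without the 2 rats farthest from the median CA1 level, r was -0.35 (adjusted p = 0.503) for Amigo2 and 0.60 (adjusted p = 0.119) for Nnat in these permutation tests, and rho was -0.49 (adjusted p = 0.227) and 0.59 (adjusted p = 0.149). Neither relation passed the correction without those rats, though both kept their sign. In the Ion Proton table below 9000, r was -0.42 (adjusted p = 0.246) for Amigo2 and 0.53 (adjusted p = 0.0895) for Nnat, and without the 2 rats it was -0.50 (adjusted p = 0.261) and 0.23 (adjusted p = 0.624), by the same permutation test. From 9000 up (n = 16), r was -0.29 for Amigo2 and -0.24 for Nnat, and no member had an adjusted p under 0.05.

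The members also varied together to different degrees. After the mean of each subfield was taken away, Spearman's rho over the 102 Illumina libraries was 0.72 between Necab2 and Bok, 0.70 between Rgs14 and Bok, 0.70 between Rgs14 and Necab2 and 0.66 between Amigo2 and Bok. With the mean of each subfield and series taken away, these were 0.60, 0.61, 0.55 and 0.48. Nnat had rho of -0.05 with Bok and -0.11 with Rgs14, and Pcp4 of 0.18 and -0.05. Libraries of 1 rat share that rat, and all share the size factors, so these values describe the tables and carry no test.

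For each member the most similar other genes were ranked by the same rho over 14154 genes. Bok was closest to Hpca (0.94, and 0.86 in the Ion Proton table), which encodes the calcium sensor hippocalcin, to Rerg (0.93 and 0.74) and to Nrip3 (0.93 and 0.72). Rgs14 was closest to Arpc2 (0.91 and 0.47), a subunit of the complex that branches actin, to Cdc40 (0.90 and 0.66) and to Pfn1 (0.88 and 0.44), which encodes profilin. Amigo2 was closest to Lats2 (0.85 and 0.76), a kinase of the Hippo pathway, and Necab2 to Fkbp1a (0.86 and 0.51). Nnat was closest to RGD1311744 (0.82 and 0.47), and Pcp4 to Tspan7 (0.54 and 0.45). Map3k15 and Iyd reached 0.57 (LOC691995) and 0.35 (Ccdc84, 0.06 in the Ion Proton table), as scarce genes. With the mean of each subfield and series taken away, the Illumina rho was 0.86 for Bok with Hpca and 0.83 with Rerg. It was 0.70 for Amigo2 with Lats2, 0.78 for Necab2 with Fkbp1a and 0.875 for Rgs14 with Arpc2. For Nnat with RGD1311744 it was 0.86, and for Pcp4 with Tspan7 0.52. In both tables the ranking is over shared RNA, and it is a description.

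How far the spread between rats was shared by the 2 library preparations was read from the same 34 rats in each subfield, in 24 permutation tests. For Rgs14, Amigo2, Necab2, Bok and Nnat, Pearson's r between the Illumina and Ion Proton levels was 0.72 to 0.92 in every subfield, with adjusted permutation p-values of 3e-05 or less. Within the number series, r for these 5 genes ranged from 0.38 (Amigo2 in CA3, below 9000) to 0.98 (Necab2 in CA1, from 9000 up). For Pcp4 r was 0.91 for CA1 pieces (0.78 without the 2 rats farthest from the median), 0.29 for CA3 pieces (adjusted permutation p = 0.114) and 0.41 for DG pieces (adjusted permutation p = 0.0227). For Map3k15, a low gene, r was 0.58 for CA1 pieces (adjusted permutation p = 0.000692), and neither 0.35 for CA3 pieces nor 0.29 for DG pieces passed (adjusted permutation p = 0.0547 and 0.114). For Iyd r was 0.22, -0.06 and -0.14, and none passed. Spearman's rho was 0.67 to 0.89 for the 5 genes and 0.81, 0.28 and 0.42 for Pcp4, 0.53, 0.31 and 0.22 for Map3k15 and 0.30, -0.01 and -0.14 for Iyd. Among those 5 it was lowest for Necab2 in DG, at 0.67 against an r of 0.89.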

How the data were processed

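RNA of 102 pieces of hippocampus (34 rats, 3 subfields) was sequenced on Illumina and Ion Proton instruments. The submitters' processing notes name STAR 2.5, featureCounts 1.4.4, DESeq2 1.16.1, cutadapt 1.8.3, bcl2fastq 2.17 and build rn5. The deposited tables hold signal: reads per gene divided by the authors' DESeq2 size factor. Whole reads were recovered for 100.0% of values (tolerance 0.01). Another table, labelled WT, was used only as an alternative, since its library type is not given in the sources used here. The authors' tables were otherwise used as deposited, and 48 rows without a symbol were kept in the fits under their identifiers.

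Groups came from the labels. Main tests used limma 3.58.1 in R 4.3.3 (trend) on log2(value + 1), in genes with a mean of at least 10 over the fitted libraries, with Benjamini-Hochberg adjustment over all genes tested, 14179 in the Illumina and 15282 in the Ion Proton table for subfields. Fold changes are on that scale. Fits were tested on simulated data. Alternatives were edgeR 4.0.16 and DESeq2 1.42.0 on recovered reads, other pseudocounts and filters, quantile normalisation, each rat left out, and fits by number series or without libraries that stand apart. Summaries used Python 3.11.15. Libraries with 1 number came from 1 rat, and their deviations from group means correlated with a median r of 0.095 over 102 pairs, against -0.005 over 3366 pairs of different rats. Named genes were the 8 members, genes of fixed lists past the test and the 3 most similar genes per member. The members and lists were chosen with earlier results of these data known.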

Additional observations from a re-analysis of the deposited data

Results flagged for a closer look

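In 5 of 48 groups of 4 to 10 samples of a member, 1 library lay farther from its neighbours than Dixon's test allows, and chance gives about 1 in 20 groups. Only the young groups, of 10 rats each, were small enough to be tested. The 5 libraries came from rats of the higher number series. Map3k15 in DG was highest in 1 rat, at 22.1 in the Illumina and 11.3 in the Ion Proton table. Necab2 in CA1 was lowest in another, at 1088. Iyd in CA3 was highest in another, at 4.91, a level of few reads. Pcp4 in CA1 was highest in another in the Ion Proton table, at 1769.

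Subfield differences that differed between rats numbered from 9000 up and below 9000, by a test of that difference in both poly-A tables, were seen for 3 members. For CA1 minus CA3 the log2 difference between the series was 1.52 for Amigo2, 1.44 for Bok and 0.67 for Rgs14. For CA3 minus DG it was -1.55 for Amigo2, -1.33 for Bok and -1.26 for Rgs14. The comparison was chosen after seeing the data.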

How the results depend on the processing

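The comparisons by number series and without the libraries that stand apart were chosen after seeing the data. Of the members' values under other settings, 386 kept direction and side of the threshold, 12 fell below it, 10 came past it and 20 turned sign. Over the comparisons, the largest absolute median log2 change of all genes was 0.0341 in the main fits. It was 0.0255 with quantile normalisation, 0.0234 with edgeR and 0.0403 with DESeq2. With the replicate block on the rat, which pairs the libraries, 2, 3 and 4 members were called between CA1 and CA3, CA1 and DG, and CA3 and DG, as without it, and it changed no other call among the subfield contrasts. The cause of the changes below was not tested.

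Below 9000, 4 members (Amigo2, Bok, Necab2 and Nnat) were called between CA1 and CA3, beside 21.8% of all genes, 3 (Bok, Pcp4 and Rgs14) between CA1 and DG (15.7%) and 5 (all tested but Necab2) between CA3 and DG (23.4%). From 9000 up, 3 (Bok, Nnat and Rgs14) were called between CA1 and CA3 (3.95%), 2 (Nnat and Rgs14) between CA1 and DG (20.9%) and 2 (Bok and Nnat) between CA3 and DG (22%). From 9000 up, Rgs14 was the 1 member retested in CA3 for aged against young (0.84% of all genes) and for impaired against young (0.798%), and Amigo2 the 1 for impaired against unimpaired in CA1 (0.695%). For impaired against young in CA1, 0 were retested from 9000 up (0.204%), as with the WT table (0). Below 9000, 1 (Rgs14) was retested for impaired against unimpaired in DG (0.0359%). Without the libraries that stand apart 1 (Pcp4) was retested for unimpaired against young in CA1, with limma (0.439%), edgeR (0.51%) or the series as a covariate (1.1%). Leaving out single rats gave 0 to 1 for impaired against young in CA1. Counts of CA1 to CA3 correlations with an adjusted p under 0.05 were 2 below 9000 and 0 from 9000 up. Without the 9 rats with a CA1 or CA3 library apart, the count was 3. That count pools the 2 series, between which CA3 levels differed.

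Signs turned from 9000 up between CA1 and CA3 for Pcp4 (0.052), Necab2 (0.079) and Bok (0.68), and between CA3 and DG for Necab2 (-0.22) and Rgs14 (-0.27). Below 9000, Bok turned between CA3 and DG (0.44; 0.0088 with edgeR without the libraries apart) and Necab2 between CA1 and DG (0.11). Necab2 between CA1 and DG was also positive with quantile normalisation (0.021), DESeq2 (0.016), edgeR without the libraries apart (0.0022) and the WT table (0.00067). The series difference of Nnat for CA1 minus CA3 turned with edgeR (-0.16), DESeq2 (-0.15), without the libraries apart (-0.30) and with both (-0.54), and that of Pcp4 for CA3 minus DG likewise (0.038, 0.027, 0.14 and 0.14). With single rats left out, values ranged from -0.098 to 0.0048 for Amigo2 and from -0.035 to 0.039 for Necab2 between CA1 and DG. The series differences so ranged from -0.15 to 0.076 for Amigo2 and from -0.0023 to 0.19 for Bok (CA1 minus DG), from -0.024 to 0.27 for Nnat (CA1 minus CA3) and from -0.095 to 0.048 for Pcp4 (CA3 minus DG). Depth limits Iyd and Map3k15.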
